A study of Mus musculus with 28 samples.

Results

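The genes described here are 8 that act in blood clotting and clot breakdown: F3, F7, F10, F13a1, Plau, Plaur, Thbd and Serpinb2. They were taken by name from the array's annotation, and where an array carried several probes for a gene the probe with the highest mean signal was used. All 8 were found among 27670 gene names on the array, and all 8 were among the 22410 genes whose probe was well above background on at least 3 arrays. No measured difference entered the choice of probe.

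RNA of mouse bone marrow-derived macrophages was measured on 28 single-colour oligonucleotide arrays. Marrow of C57BL6/J mice aged 8 to 12 weeks, pooled over several animals (2 males and 1 female by the labels), was cultured with human CSF1 at 200 ng/ml, a growth factor that turns marrow precursors into macrophages, and every group shares this culture. There were 6 groups, treated from day 7. The IL-4 + LPS group (4 arrays, experiments A, B, C and G) had IL-4 at 10 ng/ml for 18 h with LPS at 10 ng/ml for the last 4 h, and the IL-4 group (4 arrays, the same experiments) had IL-4 alone. IFN-γ at 100 U/ml for 18 h was given with the same LPS exposure in the IFN-γ + LPS group (3 arrays, experiments E, F and G) and alone in the IFN-γ group (3 arrays, the same experiments). The LPS group had LPS alone for 4 h and the untreated group neither cytokine nor LPS (7 arrays each, experiments A to G). The labels call the experiments independent but do not say which animals went into which, so the p-values measure the spread between these cultures. In such bulk RNA, fewer cells of a type and less RNA per cell cannot be told apart.

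Levels are given as normalized signal, on which 1000 units is the 75th percentile of that array's signals. Each member's probe is followed between arrays and not set against another probe. Only the sums of cell type markers add different probes, and there a bright probe can outweigh the rest. A change is called where the limma adjusted p, Benjamini-Hochberg over all 22410 genes, was below 0.05, and fold changes are log2 differences of group means ± SE from 1 model of all 28 arrays.

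Between 60% and 78.5% of probes were well above background on an array, and arrays of 1 group correlated at 0.940 to 0.991. The treatment labels of the scanner files fit 3 genes known to answer to these agents. Retnla, an IL-4 target, read at least 155360 units on every IL-4 array and at most 10.3 on all others. Cxcl9, an IFN-γ target, read 122750 to 287370 on IFN-γ arrays. It also read 10685 to 66638 on LPS arrays and 2967 to 23609 on IL-4 + LPS arrays, against at most 149 on the rest. Il6, an LPS target, read at least 8441 with LPS and at most 501 without. The authors' separate value table was not used: 26 of its 28 columns matched the array of a sample other than the one they name, 13 of them in another group. Of 8 macrophage markers, 7 were well above background on all arrays, and every other cell type's markers were above background on some array. The arrays lay on 10 slides read on 5 scan days. They were sorted into 7 slide sets, a set being 1 slide with both LPS and untreated arrays or the other slides of a scan day. This split was chosen after seeing that experiment letters of LPS and untreated arrays did not follow the slides. In the value table, LPS and untreated columns of the same letter best matched arrays of the same slide set. These were sets 3 (A), 4 (B), 2 (C), 5 (D), 6 (E), 7 (F) and 1 (G). Primed arrays of these letters lay in the same sets, except IL-4 + LPS arrays A and B, in sets 4 and 3. Letters given here are those of the scanner files, and which source names arrays wrongly was not tested.

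How the arrays were scaled mattered for IFN-γ. The median change of all genes with IFN-γ over untreated was -0.28 (log2) on the 75th percentile and 0.16 after median scaling, and 49.4% against 77.9% of the called genes were then higher. The same change of scaling moved the share of calls that were higher between IFN-γ + LPS and LPS (47.3% against 72%), IL-4 and IFN-γ (53.1% against 28%), IL-4 + LPS and IFN-γ + LPS (53.9% against 26.8%) and in the difference between LPS changes with and without IFN-γ (36.8% against 25.1%). No member changed direction in any comparison where it was called under any alternative tried.

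Clotting starts when tissue factor, the membrane protein encoded by F3, meets factor VII (F7) and the pair activates factor X (F10), which makes thrombin. Thrombin forms fibrin and activates factor XIII, whose A chain (F13a1) cross-links it, while thrombomodulin (Thbd) on the cell surface turns thrombin towards the anticoagulant protein C pathway. Fibrin is broken down by plasmin, which urokinase (Plau) releases from plasminogen, held at the cell surface by its receptor (Plaur), and the serpin PAI-2 (Serpinb2) inhibits urokinase. Macrophages are known to make several of these proteins, and tissue factor on monocytes stimulated by LPS is a textbook link between inflammation and clotting.

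RefSeq promoter windows of the GRCm38.p6 build were available for 6 of the 8 genes, all but Plau and Thbd. The 250 bases before the annotated start are shown for the genes called higher with LPS alone, 5′ to 3′ on the gene's strand, with motif matches in capitals. Searched on both strands were the AP-1 motif TGANTCA, a GAS motif TTCNNNGAA, a STAT6-type motif (TTC and GAA with 4 bases between), an ISRE-type motif (GAAA and GAAA with 2 bases between), TATAAA and the NF-κB consensus. TGANTCA, which reads the same on both strands, occurred in the windows of F3, Plaur and Serpinb2 and in 6.75% of 32851 such windows of all genes.
F3, chr3:121723287-121723536, + strand: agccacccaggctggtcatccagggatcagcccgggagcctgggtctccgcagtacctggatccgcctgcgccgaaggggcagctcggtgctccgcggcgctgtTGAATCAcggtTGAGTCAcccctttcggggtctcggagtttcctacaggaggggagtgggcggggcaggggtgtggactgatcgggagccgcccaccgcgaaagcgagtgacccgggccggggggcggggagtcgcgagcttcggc
Plaur, chr7:24462233-24462482, + strand: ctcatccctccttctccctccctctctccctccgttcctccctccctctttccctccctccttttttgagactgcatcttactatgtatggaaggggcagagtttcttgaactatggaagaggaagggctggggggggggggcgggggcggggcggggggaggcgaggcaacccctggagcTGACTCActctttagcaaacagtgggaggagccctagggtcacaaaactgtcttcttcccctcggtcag
Serpinb2, chr1:107511173-107511422, + strand: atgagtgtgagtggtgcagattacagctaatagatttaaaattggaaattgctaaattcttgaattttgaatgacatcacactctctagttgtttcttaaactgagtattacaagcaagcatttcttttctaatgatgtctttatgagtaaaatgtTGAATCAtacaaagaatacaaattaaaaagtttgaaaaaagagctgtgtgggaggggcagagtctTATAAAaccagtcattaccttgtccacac
F7, chr8:13025784-13026033, + strand: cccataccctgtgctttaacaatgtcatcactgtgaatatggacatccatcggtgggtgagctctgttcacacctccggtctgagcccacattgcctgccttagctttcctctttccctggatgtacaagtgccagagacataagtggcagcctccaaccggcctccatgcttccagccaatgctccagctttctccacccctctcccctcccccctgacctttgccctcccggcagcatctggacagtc
F10, chr8:13037058-13037307, + strand: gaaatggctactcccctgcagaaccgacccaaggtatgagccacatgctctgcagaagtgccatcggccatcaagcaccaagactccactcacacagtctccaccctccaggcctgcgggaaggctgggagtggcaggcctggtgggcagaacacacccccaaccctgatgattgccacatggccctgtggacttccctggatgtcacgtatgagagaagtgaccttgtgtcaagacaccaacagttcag
F3 held TGANTCA at 2 places, 146 to 140 and 135 to 129 bases before its start, Plaur at 69 to 63 and Serpinb2 at 94 to 88. Serpinb2 also held TATAAA, 29 to 24 bases before its start, a word found in 12.4% of windows. A second RefSeq start of Serpinb2, whose window overlaps the first, brought in a TTCNNNGAA match, present in 7.02% of windows. None of the letters searched was in the windows shown for F7 and F10 or in the 2 windows of F13a1. These matches describe the letters only and say nothing of whether a factor binds.

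**Figure D1:**
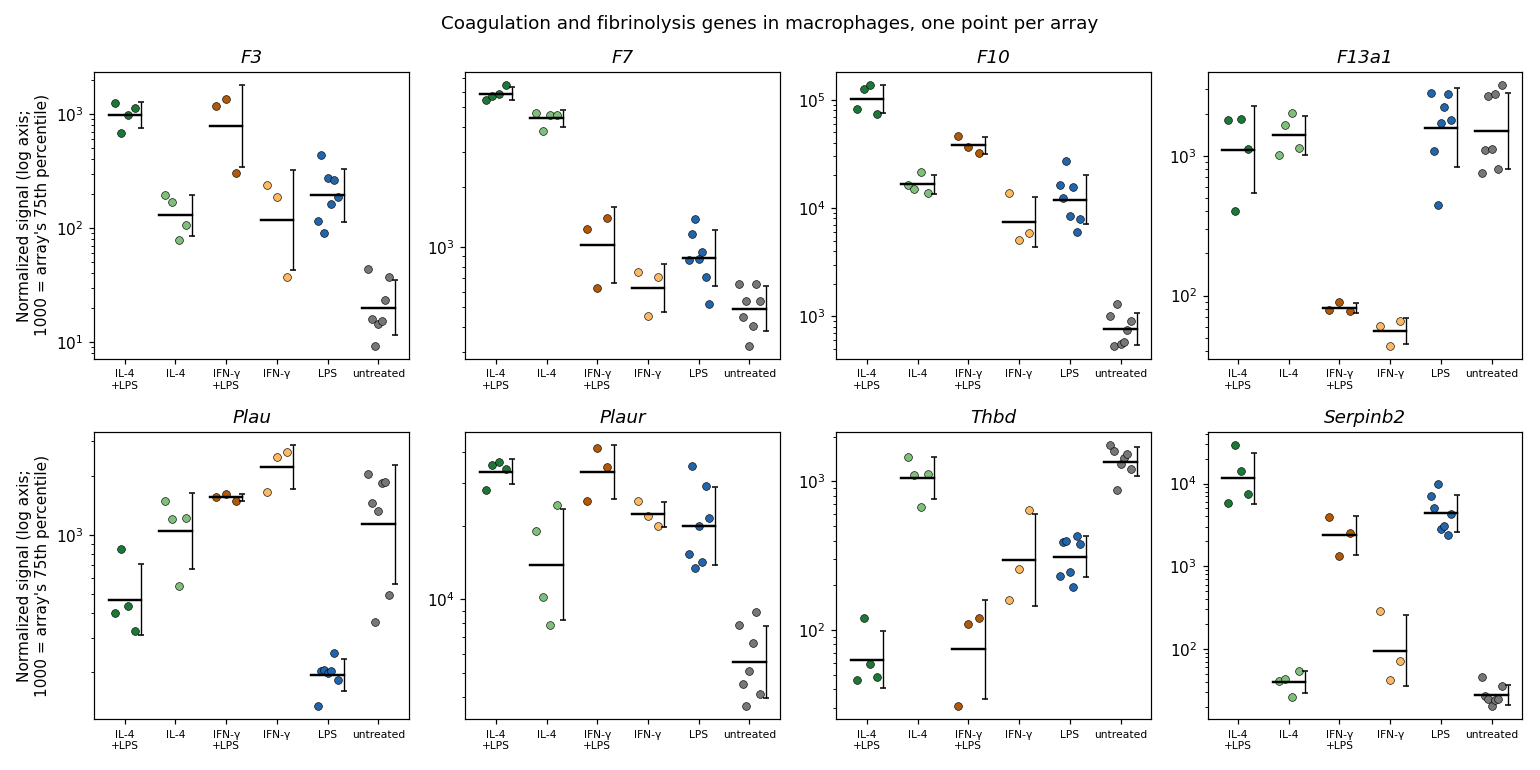
Normalized signal (log axis, 1000 units is the array's 75th percentile) of the 8 genes, 1 point per array, with the mean of log2 levels as a line and its SD as a bar, in groups of 3 to 7 arrays. F3, F10 and Serpinb2 are lowest in untreated cells, F7 stands apart in both IL-4 groups, F13a1 drops in both IFN-γ groups, and Thbd is lowest where priming and LPS were combined.

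F3, tissue factor, was lowest in untreated cells and rose with each single agent, and cells given a cytokine followed by LPS had the highest means. It read 1252, 686, 987 and 1120 units in IL-4 + LPS cells, against 194, 169, 78.9 and 106 units in IL-4 cells. In IFN-γ + LPS cells it read 1189, 1358 and 306 units, against 238, 187 and 37.1 units in IFN-γ cells. LPS alone gave 90.3 to 438 units (median 187), against 9.24 to 43.6 units (median 15.9) in untreated cells, where 5 of 7 arrays were well above background. All LPS arrays and all IL-4 arrays stood above every untreated array, whereas 1 IFN-γ array, experiment G, lay inside the untreated range. The log2 fold changes were 3.28 ± 0.44 for LPS over untreated (adjusted p = 8.05e-07), 2.69 ± 0.52 for IL-4 (0.000627) and 2.57 ± 0.57 for IFN-γ (0.00125). LPS added 2.94 ± 0.58 in IL-4 cells (0.000253) and 2.74 ± 0.67 in IFN-γ cells (0.00716), the second not called without IFN-γ + LPS experiment F (2.35, adjusted p = 0.0515) or IFN-γ experiment G (1.91, 0.0845). After LPS, primed cells were higher still, by 2.35 ± 0.52 for IL-4 + LPS over LPS (adjusted p = 0.00345) and 2.03 ± 0.57 for IFN-γ + LPS over LPS (0.0102). Within slide sets, IL-4 + LPS exceeded LPS in 4 of 4, but IFN-γ + LPS exceeded LPS in 2 of 3, the exception being -0.52 in the set with experiment G. With background corrected by normexp the IL-4 and IFN-γ changes alone were not called (1.09, adjusted p = 0.334, and 0.69, adjusted p = 0.479). IFN-γ + LPS over LPS was not called without IFN-γ + LPS experiment E (1.74, adjusted p = 0.0863) or F (1.64, 0.0976).

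F7, the protease that tissue factor binds, was set apart by IL-4. Its signal was 5469, 5690, 5848 and 6477 units in IL-4 + LPS cells and 4700, 3802, 4592 and 4595 units in IL-4 cells. IFN-γ + LPS cells had 1227, 623 and 1404 units and IFN-γ cells 755, 455 and 711 units. LPS cells had 518 to 1391 units (median 870), against 322 to 654 units (median 536) in untreated cells. Every IL-4 array therefore lay above every array without IL-4. IL-4 raised F7 by 3.16 ± 0.25 (log2, adjusted p = 9.86e-10), and the difference remained 2.73 ± 0.25 between IL-4 + LPS and LPS (3.19e-08). LPS alone added 0.84 ± 0.21 (0.00171), a rise present in 7 of 7 slide sets between 0.68 and 1.09, although the ranges of the groups overlap. Before scaling, F7 read 666 to 1484 scanner units on LPS arrays and 567 to 1032 on untreated arrays. The 75th percentile was 773 to 1285 scanner units on LPS arrays, against 1192 to 2118 on untreated arrays, so the size of this small rise depends on the scaling. The rise with LPS was 0.41 ± 0.28 in IL-4 cells (adjusted p = 0.309) and 0.71 ± 0.32 in IFN-γ cells (0.173), neither called. With slide set as a block, both passed (adjusted p = 0.00692 and 0.000640), as did IFN-γ over untreated (0.43, adjusted p = 0.0101, against 0.34 ± 0.27, adjusted p = 0.364, without the block).

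F10, whose product is the enzyme that generates thrombin, rose with every agent and reached its highest level with IL-4 and LPS together. It read 83012, 125070, 137380 and 74127 units in IL-4 + LPS cells, against 16476, 15017, 21708 and 13827 units in IL-4 cells. The IFN-γ + LPS arrays read 46498, 36489 and 32045 units, against 13615, 5087.5 and 5855 units in IFN-γ cells. LPS alone gave 5941 to 27092 units (median 12491), against 532 to 1293 units (median 745) in untreated cells. No array of a treated group reached down to the untreated range, and the 3 top groups in order (IL-4 + LPS, IFN-γ + LPS, IL-4) did not overlap one another. The log2 changes over untreated were 4.44 ± 0.35 for IL-4 (adjusted p = 9.86e-10), 3.97 ± 0.29 for LPS (2.96e-11) and 3.29 ± 0.38 for IFN-γ (3.47e-07). On top of priming, LPS added 2.62 ± 0.39 in IL-4 cells (6.63e-06) and 2.36 ± 0.45 in IFN-γ cells (0.000766). Minus the rise in unprimed cells, the additions were -1.35 ± 0.49 with IL-4 and -1.61 ± 0.54 with IFN-γ, which missed the threshold in the main model (adjusted p = 0.272 and 0.0651) and passed it with slide set as a block (0.00566 and 0.000881). In every slide set that could be compared, 4 of 4 with IL-4 and 3 of 3 with IFN-γ, the addition was the smaller one.

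F7 and F10 are neighbours on chromosome 8 in the RefSeq order of genes, between Mcf2l and Proz, so the flanking genes were read as well, chosen by position. Mcf2l had 926 to 1314 units in IL-4 + LPS cells and 1780 to 2110 units in IL-4 cells (3 arrays with a value), against 36.1 to 106 units in LPS cells and 39.5 to 58.1 units in untreated cells. Its change with IL-4 over untreated was 5.34 ± 0.37 (log2, adjusted p = 2.80e-10), so 3 adjacent genes were higher with IL-4. With LPS over untreated Mcf2l was at 0.29 ± 0.29 (0.474), and with IFN-γ over untreated it was called higher, at 1.64 ± 0.37 (0.00174). Proz, which encodes protein Z, was 0.19 ± 0.58 with IL-4 alone (0.905) but was called higher in IL-4 + LPS cells. There it stood 2.01 ± 0.65 above IL-4 cells (0.0186), where 2 of 4 arrays were above background, and 2.34 ± 0.58 above LPS cells (0.00912). Over the 28 arrays the log2 levels of F7 and F10 correlated at r = 0.76, and at 0.58 after group means were removed, as a description of arrays that share slides.

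F13a1, the cross-linking transglutaminase chain, fell with IFN-γ and passed no test with LPS or IL-4. In IFN-γ + LPS cells it read 78.6, 90.0 and 77.6 units, and in IFN-γ cells 60.6, 43.7 and 65.9 units. IL-4 + LPS cells had 1818, 404, 1836 and 1121 units, and IL-4 cells 1016, 1656, 2019 and 1139 units. LPS cells had 442 to 2823 units (median 1808), against 749 to 3216 units (median 1127) in untreated cells. The 6 IFN-γ arrays lay below all 22 others, with no overlap. F13a1 fell by 4.75 ± 0.53 with IFN-γ over untreated (log2, adjusted p = 2.37e-07) and by 4.28 ± 0.53 with IFN-γ + LPS over LPS (2.29e-06), where the median gene moved by -0.28 and -0.23. Its change with LPS over untreated was 0.08 ± 0.41 (95% interval -0.78 to 0.93, adjusted p = 0.918), and with IL-4 over untreated -0.10 ± 0.49 (-1.11 to 0.90, 0.942), intervals that leave room for changes of nearly 1 log2 unit either way. Platelets and their precursors also carry F13a1, and the summed signal of 8 of their markers was lower in the same arrays, 12771 to 22545 units in IFN-γ + LPS cells and 16822 to 19836 units in IFN-γ cells. It was 36468 to 61012 units in IL-4 + LPS cells, 27152 to 42816 in IL-4 cells, 48730 to 107090 in LPS cells and 42810 to 71763 in untreated cells. That sum is nearly all Pf4, none of the 8 was at 0, and only 3 of the 8 markers were well above background on every array. Of these, Pf4 fell by 1.63 ± 0.24 with IFN-γ over untreated (adjusted p = 1.29e-05). Ppbp was not well above background on any IFN-γ array and was at least 28.9-fold lower than in untreated cells, a bound from the dimmest measurable probe of each array (2.21e-12), while Gp1bb, Gp5, Gp6, Gp9 and Itga2b did not pass the test. Their part in the F13a1 result was not tested.

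Thbd, the thrombin receptor of the protein C pathway, was high in untreated and IL-4 cells and lowest where LPS followed a cytokine. It read 46.0, 121, 59.1 and 48.6 units in IL-4 + LPS cells, against 1455, 1108, 677 and 1127 units in IL-4 cells. In IFN-γ + LPS cells it read 30.8, 109 and 121 units, against 158, 257 and 643 units in IFN-γ cells. LPS cells had 196 to 426 units (median 377), against 875 to 1752 units (median 1429) in untreated cells. Arrays of the 3 LPS-treated groups lay below all untreated and IL-4 arrays, and those with priming plus LPS lay below all with LPS alone. Thbd fell by 2.13 ± 0.32 with LPS over untreated (log2, adjusted p = 4.26e-06) and by 2.20 ± 0.41 with IFN-γ over untreated (0.000237). IL-4 alone gave -0.37 ± 0.37 (95% interval -1.14 to 0.40, adjusted p = 0.654), yet with LPS in IL-4 cells Thbd fell by 4.06 ± 0.42 (2.77e-08), a 16.7-fold lower mean. The change in IL-4 cells minus that in unprimed cells was -1.93 ± 0.53, with adjusted p = 0.0681 in the main model, 0.00275 with slide set as a block and the same sign in 4 of 4 sets. In IFN-γ cells Thbd fell by 2.00 ± 0.49 with LPS (0.00686), and the difference from unprimed cells was not called (difference 0.13 ± 0.58, 95% interval -1.08 to 1.33). Endothelial cells are the best known source of Thbd, and the sum of 4 endothelial markers, 3 of them above background on every array, was 3801 to 6280 units in IL-4 + LPS cells, against 338 to 650 in IL-4 cells, and 7749 to 17037 units in IFN-γ + LPS cells, against 6975 to 14318 in IFN-γ cells. It was 8796 to 13287 units in LPS cells, against 1150 to 2921 in untreated cells, and most of it was Kdr, which rose by 2.44 ± 0.30 with LPS and 2.33 ± 0.38 with IFN-γ and fell by 2.78 ± 0.35 with IL-4 over untreated. Cdh5, Tek and Emcn, none of them at 0, did not pass the test with LPS, IL-4 or IFN-γ over untreated, and the part of these markers in the Thbd result was not tested. The IFN-γ + LPS falls of Thbd lost their call with normexp (-0.50, adjusted p = 0.512, over IFN-γ; -0.83, adjusted p = 0.445, over LPS), and so did IL-4 + LPS over LPS (-1.27, adjusted p = 0.211, against -2.30 ± 0.37, adjusted p = 0.000150). Without IFN-γ + LPS experiment E or IFN-γ experiment G, the fall in IFN-γ cells was 1.37 or 1.45 (adjusted p = 0.0851 and 0.0777).

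Plau, urokinase, fell with LPS alone and was not called lower with LPS where IFN-γ had been given first. It read 1559, 1612 and 1487 units in IFN-γ + LPS cells, against 1650, 2494 and 2646 units in IFN-γ cells. IL-4 + LPS cells had 401, 847, 433 and 324 units, against 1487, 1204, 547 and 1223 units in IL-4 cells. LPS cells had 134 to 251 units (median 202), against 361 to 2052 units (median 1460) in untreated cells. All 7 LPS arrays lay below all others, and both primed LPS groups lay above them. With LPS alone Plau fell by 2.55 ± 0.33 (log2, adjusted p = 5.64e-07), whereas in IFN-γ cells LPS gave -0.51 ± 0.51 (95% interval -1.57 to 0.54, adjusted p = 0.664). The LPS changes with and without IFN-γ differed by 2.03 ± 0.61 (adjusted p = 0.0374), and IFN-γ + LPS stood 3.00 ± 0.43 above LPS (1.37e-05), in 3 of 3 slide sets. The test of that difference in LPS changes lost its call without any 1 of 13 of the 20 arrays in it, at values from 1.82 to 2.16, with normexp (1.28, adjusted p = 0.364) and with median scaling (1.85, 0.139). In IL-4 cells Plau fell by 1.16 ± 0.44 with LPS (0.0468) and IL-4 + LPS exceeded LPS by 1.27 ± 0.39 (0.0410), but neither held with normexp (-1.03, adjusted p = 0.145, and 0.79, 0.589) or median scaling (-1.26, 0.0574, and 1.18, 0.140), and the first lost its call without 6 of its 8 arrays in turn (values from -1.13 to -0.99) and the second without 8 of its 11 (0.98 to 1.34). IFN-γ alone gave 0.97 ± 0.43 over untreated (0.104), called with slide set as a block (1.22, adjusted p = 0.00971), and untreated arrays C and G, at 361 and 492 units, were far below the other 5. A dimmer Plau probe, above background on 23 of 28 arrays, gave a larger fall with LPS (-3.38, adjusted p = 9.64e-10) and called the lesser fall in IL-4 cells too (difference 2.05, adjusted p = 0.0330, against 1.39 and 0.389 on the brighter probe). Plau's neighbour Camk2g, a calmodulin-dependent kinase subunit read because of its position, also fell by 2.83 ± 0.24 with LPS over untreated (4.34e-10). Unlike Plau, Camk2g was called lower with LPS in IFN-γ cells as well (-1.64 ± 0.37, adjusted p = 0.00371). Vcl, on Plau's other side, was at 0.35 ± 0.25 with LPS over untreated (0.298) and at -1.44 ± 0.33 with IFN-γ over untreated (0.00159).

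Plaur, the urokinase receptor, was raised by every agent, within a narrow span. Its signal was 28074, 35520, 36540 and 34040 units in IL-4 + LPS cells, against 18986, 10247, 7877 and 24254 units in IL-4 cells. IFN-γ + LPS cells had 25339, 41658 and 34922 units, against 25272, 21909 and 20043 units in IFN-γ cells. LPS cells had 13495 to 35335 units (median 19976), against 3658 to 8877 units (median 5083) in untreated cells. Only IL-4 cells overlapped the untreated range. The log2 changes over untreated were 2.01 ± 0.33 for IFN-γ (adjusted p = 5.27e-05), 1.86 ± 0.26 for LPS (1.38e-06) and 1.33 ± 0.30 for IL-4 (0.00358). LPS added 1.27 ± 0.34 in IL-4 cells (0.00499) and 0.58 ± 0.39 in IFN-γ cells (0.451). The first was not called with quantile normalization (0.79, adjusted p = 0.0855) or median scaling (1.16, 0.0790). The addition in IFN-γ cells minus that in unprimed cells was -1.28 ± 0.47 (adjusted p = 0.105 in the main model, 0.0260 with slide set as a block). IL-4 + LPS and IFN-γ + LPS cells differed by 0.00 ± 0.37 (95% interval -0.76 to 0.76).

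Serpinb2, PAI-2, had the largest rises of the 8 genes. It read 5879, 29103, 13992 and 7385 units in IL-4 + LPS cells, against 40.5, 43.8, 26.5 and 54.7 units in IL-4 cells. In IFN-γ + LPS cells it read 3900, 1335 and 2540 units, against 284, 41.9 and 71.5 units in IFN-γ cells. LPS cells had 2413 to 9930 units (median 4278), against 20.4 to 46.2 units (median 25.1) in untreated cells. Every array with LPS stood above every array without it. The rise was 156-fold with LPS over untreated (log2 7.29 ± 0.40, adjusted p = 1.28e-13), 288-fold in IL-4 cells (8.17 ± 0.53, 6.50e-12) and 25.0-fold in IFN-γ cells (4.64 ± 0.61, 1.21e-05). The rise in IFN-γ cells minus that in unprimed cells was -2.65 ± 0.73 log2 units (0.0226), negative in 3 of 3 slide sets. That difference was not called without IFN-γ experiment E (-1.86, adjusted p = 0.122) or IFN-γ + LPS experiment F (-2.23, 0.0959), or with normexp (-1.35, 0.466). Experiment E is the IFN-γ array at 284 units, and without it the IFN-γ effect alone, 1.76 ± 0.52 over untreated (0.0133), was not called either (0.96, adjusted p = 0.222), nor was it with normexp (0.37, 0.608). IL-4 + LPS exceeded IFN-γ + LPS by 2.29 ± 0.57 (0.00401), with no overlap. IL-4 + LPS over LPS was 1.39 ± 0.47 (0.0660), called with slide set as a block (1.28, adjusted p = 0.0230).

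**Figure D2:**
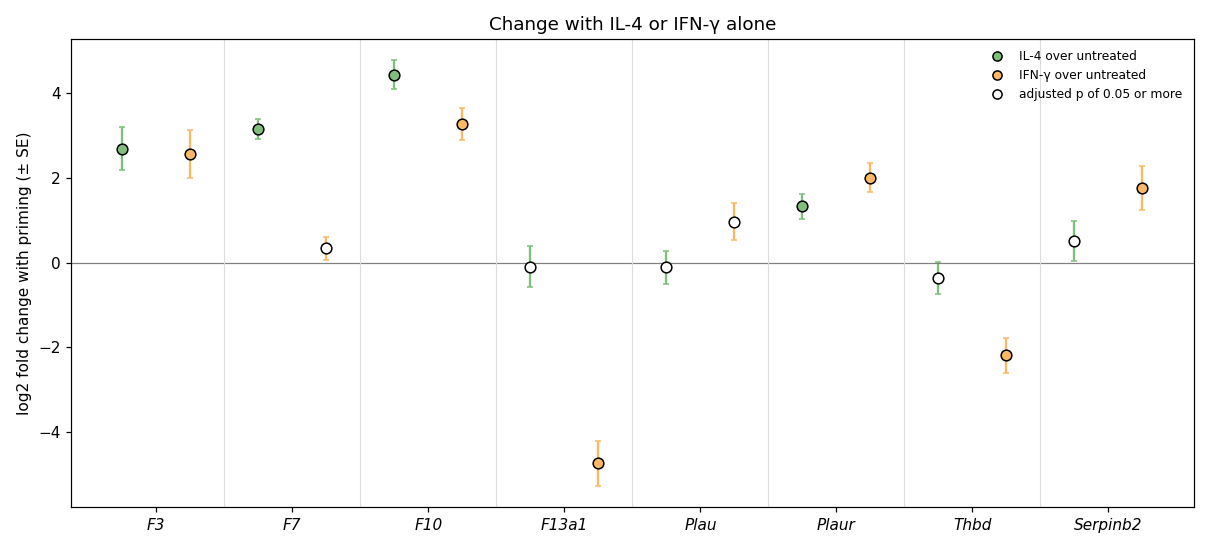
Change of each gene with IL-4 (left point) or IFN-γ (right point) over untreated, as log2 fold change ± SE from the model of 28 arrays; open points had an adjusted p of 0.05 or more. F3, F10 and Plaur lie above 0 with both cytokines, F7 with IL-4 (3.16), and F13a1 (-4.75) and Thbd (-2.20) lie far below 0 with IFN-γ.

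The cytokines were compared each with untreated cells and with each other. With IL-4, F10, F7, F3 and Plaur were called higher (F3 not with normexp, Plaur not with only shared experiments, at 1.53 and adjusted p = 0.0720) and none lower: 4 of 8 members changed over untreated, where 11.4% of all genes did (5.85% higher, 5.54% lower), and the median member change was 0.92 (log2) against 0.01 for all genes. With IFN-γ, F10, F3, Plaur and Serpinb2 were called higher (F3 and Serpinb2 not with normexp) and F13a1 and Thbd lower: 6 of 8 changed, where 25.9% of all genes did (12.8% higher, 13.1% lower), with a median of 1.36 against -0.28. Directly compared, IL-4 over IFN-γ called F13a1 (4.65 ± 0.59), F7 (2.82 ± 0.30), Thbd (1.83 ± 0.46, but 1.37 and adjusted p = 0.0501 without IFN-γ experiment E) and F10 (1.16 ± 0.42, adjusted p = 0.0414), all higher with IL-4, which is 4 of 8 where 27.9% of all genes were called (14.8% higher, 13.1% lower). The F10 difference was lost when any 1 of 5 of the 7 arrays was left out, at 0.89 to 1.20, and with normexp (0.97, adjusted p = 0.207) or median scaling (0.80, 0.183). The Thbd difference was not called with median scaling either (1.47, adjusted p = 0.0583). Plau (-1.08 ± 0.48, adjusted p = 0.0954) and Serpinb2 (-1.24 ± 0.57, 0.112) missed the threshold but were called lower with IL-4 under several alternatives, Plau with slide (-1.72, adjusted p = 0.00678) or slide set (-1.41, 0.0107) as a block and Serpinb2 with quantile normalization (-1.60, 0.0350) or slide set as a block (-1.33, 0.0438). F3 differed by 0.12 ± 0.63 between the cytokines (95% interval -1.17 to 1.42). IL-4 and IFN-γ arrays share only 1 slide set, so cytokine and slide are largely confounded. In that set the called differences were 4.11 (F13a1), 2.69 (F7), 0.81 (Thbd) and 1.24 (F10). Plau and Serpinb2 were at -1.11 and -0.38 there, and F3 at 1.51. Plaur had the opposite sign, 0.28 in that set against -0.68 ± 0.37 in the model.

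**Figure D3:**
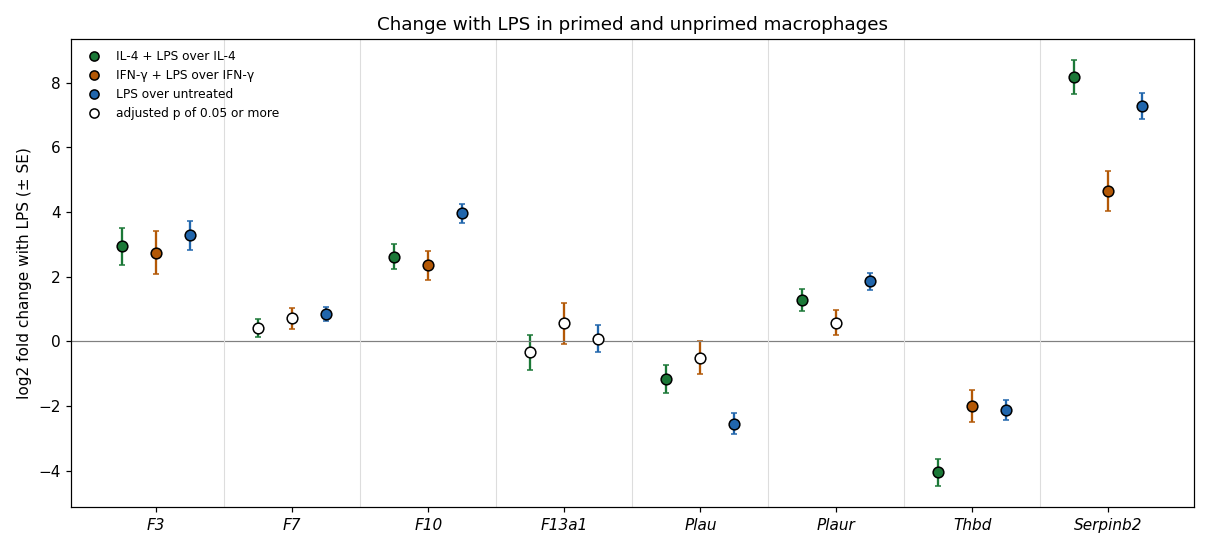
Change of each gene with LPS in IL-4 cells (left point), IFN-γ cells (middle) and unprimed cells (right), as log2 fold change ± SE; open points had an adjusted p of 0.05 or more. Serpinb2 is highest in all 3 settings, at 8.17, 4.64 and 7.29, Thbd falls furthest in IL-4 cells (-4.06), and the fall of Plau shrinks to -0.51 in IFN-γ cells.

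F3, F10 and Serpinb2 were called higher and Thbd lower with LPS after either cytokine and without one, the calls of F3 and Thbd in IFN-γ cells resting on single arrays as given above. In IL-4 cells 6 of 8 members changed (4 higher, 2 lower), where 31.3% of all genes did (15% higher, 16.4% lower), and in IFN-γ cells 4 of 8 (3 higher, 1 lower), where 12% did (5.72% higher, 6.26% lower). In unprimed cells 7 of 8 changed (5 higher, 2 lower), where 42.5% did (20.9% higher, 21.6% lower). Median member changes were 0.84, 0.64 and 1.35, against 0.14, 0.14 and 0.06 for all genes. The difference in LPS change between IL-4 and unprimed cells was called for 0 of 8 members by limma, where 1.63% of all genes were called (0.91% higher, 0.718% lower). At an unadjusted p below 0.05 the count was 3, namely F10, Plau and Thbd. No share of all genes is given at that looser threshold, so this count cannot be set against the 1.63%. Between IFN-γ and unprimed cells it was called for 2 of 8, Plau and Serpinb2, where 8.38% of all genes were (3.08% higher, 5.29% lower). These comparisons share the LPS and untreated arrays.

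With LPS in both arms, primed cells were then compared with unprimed ones. IL-4 + LPS over LPS called 5 of 8, where 8.99% of all genes were called (4.36% higher, 4.63% lower): F10 (3.09 ± 0.35), F7, F3 and Plau higher and Thbd lower, the Plau and Thbd calls not holding with normexp. IFN-γ + LPS over LPS also called 5 of 8, where 22.8% of all genes were (10.8% higher, 12% lower): Plau, F3 and F10 (1.67 ± 0.38, adjusted p = 0.00199) higher and F13a1 and Thbd lower, the Thbd call not holding with normexp. IL-4 + LPS over IFN-γ + LPS called F13a1 (3.76 ± 0.59), F7 (2.52 ± 0.30), Serpinb2 and F10 (1.42 ± 0.42, but 1.30 and adjusted p = 0.0501 without IFN-γ + LPS experiment G) higher and Plau lower (-1.73 ± 0.48, adjusted p = 0.00826), 5 of 8 where 25.6% of all genes were called (13.8% higher, 11.8% lower). The 2 cytokines share 1 slide set, and in it these differences had the same signs, at 3.85, 2.21, 1.54, 1.21 and -2.20. With median scaling the F10 difference between IL-4 + LPS and IFN-γ + LPS cells was not called (1.07, adjusted p = 0.0743).

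**Figure D4:**
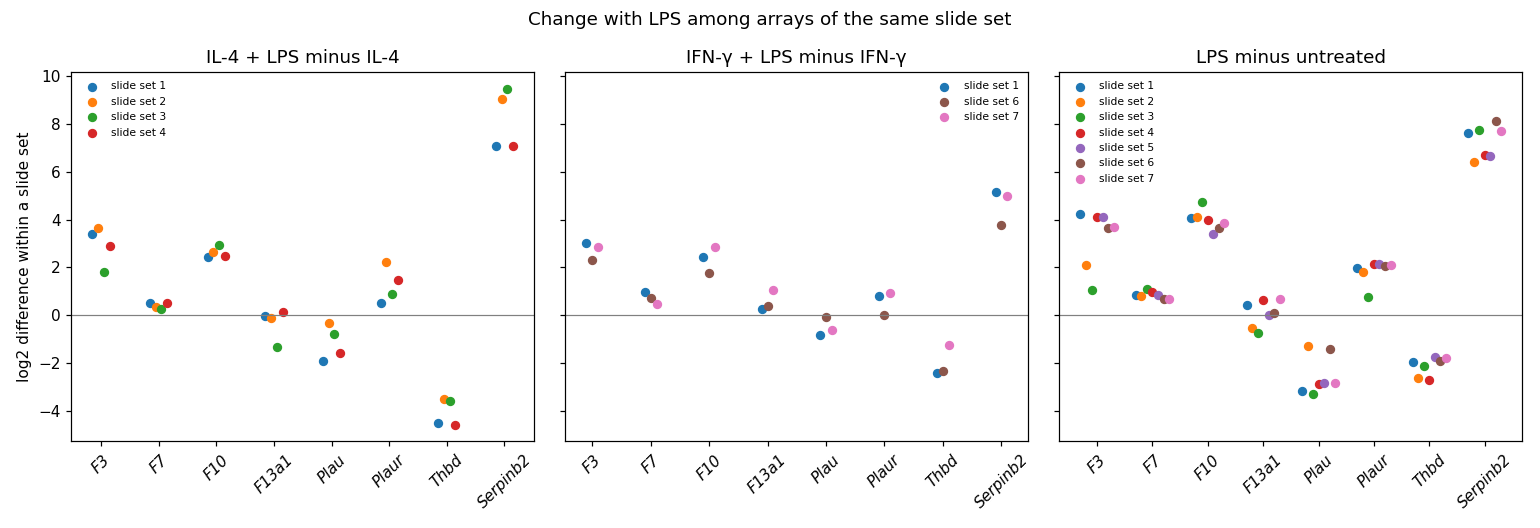
Log2 difference between the LPS-treated and matching arrays of the same slide set, 1 point per set, for IL-4 cells (4 sets), IFN-γ cells (3 sets) and unprimed cells (7 sets). F10 spans 3.38 to 4.76 over the 7 sets of unprimed cells and Serpinb2 6.43 to 8.13, while F3 has 1 low set at 1.05.

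The remaining genes of the pathway were read from 4 lists of 52 genes, of which 43 were tested. LPS over untreated called 8 of the 43 higher and 5 lower. Over all genes 20.9% were higher and 21.6% lower. Plat, tissue plasminogen activator, rose by 4.42 ± 0.29. F2r, the thrombin receptor PAR1, was called higher (adjusted p = 2.80e-12), at 115 to 362 units in LPS cells, against 1.49 to 8.75 units in untreated cells, where 1 of 7 arrays was above background, so that no size is given. Falls were seen for Vwf, von Willebrand factor (-1.32 ± 0.23), Vldlr (-1.24 ± 0.33, 6 of 7 LPS arrays above background) and Lrp1 (-0.67 ± 0.16), the last 2 being receptors that clear protease and inhibitor complexes. Of 16 genes of the plasminogen list, 4 rose and 3 fell, of 10 anticoagulants 3 rose and 0 fell, of 14 coagulation factors 0 rose and 2 fell, and of 3 thrombin-type receptors 1 rose.

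IL-4 over untreated called 6 of the 43 higher and 5 lower, where 5.85% and 5.54% of all genes were. Vwf (1.47 ± 0.27) and Pros1, protein S (0.79 ± 0.24), rose and Lrp1 fell (-1.15 ± 0.19). F2r was called higher too (adjusted p = 3.00e-05), at 25.9 to 40.2 units in IL-4 cells, against the same barely measured untreated level. F8 was called lower (adjusted p = 0.0448), at 5.13 to 12.6 units in IL-4 cells, none of them well above background. Untreated cells had 9.28 to 68.4 units, an overlapping range with 4 of 7 arrays above background, so that no size is given. IFN-γ over untreated called 6 higher and 7 lower, where 12.8% and 13.1% of all genes were, among them Procr, the endothelial protein C receptor (3.43 ± 0.37), and Serping1, C1 inhibitor (2.55 ± 0.59, 4 of 7 untreated arrays above background), against Lrp1 (-1.82 ± 0.21), Vldlr (-1.65 ± 0.43) and Pros1 (-1.47 ± 0.26).

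LPS called 8 of the 43 higher and 3 lower in IL-4 cells, where 15% and 16.4% of all genes were. Procr (4.12 ± 0.38) rose, Serping1 was at least 33.4-fold higher (adjusted p = 5.91e-08; no IL-4 array above background), and Vwf (-1.08 ± 0.30), Lrp1 (-0.81 ± 0.21) and Ggcx (-0.56 ± 0.19), the vitamin K-dependent carboxylase, fell. In IFN-γ cells LPS called 6 higher, among them Plat (5.59 ± 0.44) and Procr (2.31 ± 0.44), and 1 lower, Ggcx (-0.72 ± 0.23), where 5.72% and 6.26% of all genes were. Named after their values were seen, pathway genes whose LPS change differed between primed and unprimed cells included Plat with IL-4 (-2.35 ± 0.48, adjusted p = 0.00805) and S100a10 (-0.74 ± 0.23, 0.0490) with IFN-γ. The median pathway gene moved by 0.06 with LPS and -0.30 with IFN-γ over untreated, against 0.06 and -0.28 for all genes.

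Over the 28 arrays, the genes whose log2 level ran closest to each member were Slc7a11 (r = 0.92) and Slc7a2 (0.91) for F3, Retnla and Tmem26 (both 0.94) for F7, Ier3 (0.97) and Slc7a2 (0.96) for F10, and Ltc4s and Slc9a9 (both 0.94) for F13a1. For Plau they were Lonrf3 (0.93) and Lat2 (0.90), for Plaur Nus1 and Ccl7 (both 0.91), for Thbd Thsd1 (0.95) and Ddx20 (0.94), and for Serpinb2 Batf and Tma16 (both 0.98). These correlations describe arrays of 6 groups that share treatments and slides.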

How the data were processed

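RNA of 28 macrophage cultures was hybridised to Agilent single-colour arrays. The deposited files hold scanner intensity values that Agilent Feature Extraction 9.5.1 made, per the file headers and the submitters' processing notes. The authors' deposited value table, which compared with the scanner values holds log2 differences from untreated medians at an unknown scaling, gave no result, because 26 of its 28 columns matched another array than the one they name.

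From the intensity column of processed signals, log2 values were taken, minus each array's 75th percentile, leaving out control spots and outlier spots (at most 414 an array). Probe names followed RefSeq symbols by accession (22951 of 41174 probes), symbol (6659) or synonym (3109), and 8455 kept the file's name. The brightest probe stood for a gene, and genes well above background on at least 3 arrays were tested (22410). The 6 group means were fitted with limma 3.58.1 in R 4.3.3 (lmFit, eBayes), two-sided, for 11 comparisons, with Benjamini-Hochberg adjustment over all genes tested. The fit was tested on simulated data. Precision is limited by the 3 to 7 arrays of a group; the 75th percentile was 579 to 2118 scanner units.

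Named were the 8 members, up to 3 called pathway genes a direction in the comparisons with untreated cells and with priming alone, and the 2 genes correlating best with each member; flanking genes were added by position. Results for some genes that these rules name are not reported here. The members and lists were chosen with earlier results of these data known.

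Experiment letters are shared between groups. Same-letter arrays deviated together within the IL-4 pair (r from 0.16 to 0.73) and within the IFN-γ pair (0.28 to 0.64), but not between LPS and untreated (-0.50 to 0.17), where arrays of a slide set did (0.28 to 0.64), so the letters were taken as pairing only the primed groups with their LPS groups, and no call there changed with the letter as a block. Slide sets pair the IL-4 groups otherwise. IL-4 + LPS experiment A shares a set with IL-4 experiment B, and IL-4 + LPS experiment B with IL-4 experiment A. Within-set values in IL-4 cells therefore cross these scanner file letters, and by slide set this pair deviated together at r from 0.39 to 0.73. Alternatives were the background correction (normexp, offset 50), the normalization, the filter, the probe, blocks, the samples in the fit and leaving out each array. The build of the array's own coordinates is not given in the sources used here, so none is printed.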

Additional observations from a re-analysis of the deposited data

Results flagged for a closer look

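F7 in IL-4 cells had 1 array apart from the others. Experiment B read 3802 units, against 4592 to 4700 units in the other 3 arrays, a gap wide for a group of 4 by Dixon's test. Of 32 groups of 4 to 10 arrays examined this was the only one, and chance alone gives about 1 in 20.

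The LPS change of Plau differed between IFN-γ cells and unprimed cells by 2.03 ± 0.61 log2 units (SE, adjusted p = 0.0374, interaction contrast in limma), positive in 3 of 3 slide sets.

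The LPS change of Serpinb2 differed between the same settings by -2.65 ± 0.73 (adjusted p = 0.0226), negative in 3 of 3 slide sets. Both have 3 arrays in each IFN-γ group, and in each the call was lost when some single arrays were left out and with normexp (1.28, adjusted p = 0.364, for Plau and -1.35, 0.466, for Serpinb2).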

How the results depend on the processing

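Of 88 member results, being 8 genes in 11 comparisons, none that was called reversed under any alternative run. Calls lost and gained were 11 and 0 with normexp background correction, 2 and 2 with quantile normalization, 7 and 3 with median scaling, 1 and 12 when the slide was blocked, 0 and 12 when the slide set was (chosen after seeing the data), 1 and 5 when the scan day was, and 5 and 1 with only the groups compared. With only experiments found in every group compared, 11 of 72 were lost. Where LPS or untreated arrays enter, that alternative picked them by letters that did not follow the slides. A call lost there is therefore no test of matched cultures. The filter and probe alternatives moved at most 3, and of 1008 results with 1 array left out 43 were lost and 8 gained. With normexp the median of all genes moved to 0.75 for LPS in IFN-γ cells, against 0.14 in the main model.

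The number of members called moved by over 1.5 times as follows. For IL-4 + LPS over LPS it was 3 with normexp (5 in the main model). For LPS in IFN-γ cells it was 2 with only the groups compared and 2 with only shared experiments (4), and 2 to 4 when 1 array was left out, the 2 being without IFN-γ experiment G. For IFN-γ + LPS over LPS it was 3 with only shared experiments (5). For the difference between LPS changes with IL-4 and without (0), it was 3, 2 and 1 when the slide, the slide set or the scan day was blocked, 1 with only the groups compared, and 0 to 1 when 1 array was left out, the 1 being without IL-4 + LPS experiment B. For the same difference with IFN-γ (2), it was 0 with normexp and 0 with only shared experiments, 4 with each of those 3 blocks, and 0 to 3 when 1 array was left out, the 0 being without IFN-γ experiment E or IFN-γ + LPS experiment F.

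With the experiment letter as a replicate block, the difference with IL-4 was called for 1 member, Thbd (-1.93, adjusted p = 0.0439). The block also called F10 in the difference with IFN-γ (-1.61, adjusted p = 0.0165) and Serpinb2 in IL-4 over IFN-γ (-1.70, 0.0489), lost F10 in IL-4 over IFN-γ (0.77, 0.138), and changed no other call. The value table could not serve as an alternative, and IL-4 against IFN-γ could not be limited to shared experiments, of which there is 1. For members with dim groups, such as F3, Serpinb2, Thbd and F13a1, the signal over background limits how closely those low groups are measured. The cause of these shifts was not tested.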
